A study of Rattus norvegicus with 10 samples.

Results

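The solute carrier genes, named Slc with a family number, encode membrane proteins that move ions, nutrients, transmitters, metals and metabolites into cells, vesicles and organelles. Their levels in the hippocampus were examined on Affymetrix rat genome arrays of 10 male Wistar rats, with 1 array for each rat. The 5 rats of the C-group were fed solid chow and the 5 rats of the P-group a powdered chow, for 8 days from an age of 3 weeks, and the labels give the age as 4 weeks. All rats had first been acclimated to powdered feed, so that the diet changed for the C-group and stayed the same for the P-group. The comparison asks whether chewing solid feed in the weaning period goes with a difference in hippocampal mRNA. Members were the probe sets annotated with exactly 1 gene symbol that starts with Slc and a digit, apart from some genes that are not analysed here. This gave 394 of 31042 probe sets, for 291 of 14217 named genes.

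In neurons, vesicular carriers load transmitters into synaptic vesicles and plasma membrane carriers take transmitters back up after release. Bicarbonate, chloride and sodium carriers set the pH and the chloride of neurons and glia. In the choroid plexus, which lies beside the hippocampus in the ventricle and makes cerebrospinal fluid, carriers of the same families move ions and nutrients between blood and fluid, and the meninges have carriers of their own.

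All values are the log2 values of the authors, made with qFARMS, a factor model that gives nearly the same value on every array when the probes of a set do not vary together. A probe set is called variable here when the standard deviation (SD) over the 10 rats was above 0.01. This held for 38 of the 394 member probe sets (9.64%), in 33 of the 291 genes, against 2904 of all 31042 probe sets (9.36%). The other member probe sets had SDs of at most 0.00203 and group differences of at most 0.00163 log2 units, so their values say almost nothing on a difference between rats. Rat C1 had the highest value in 24 of the 38 variable member probe sets (63.2%), against 53.5% of all variable probe sets. The neuronal markers Snap25, Camk2a and Slc17a7 were not variable, at 12.63, from 12.19 to 12.20 and at 10.69 in the 10 rats. Their values thus say almost nothing on a difference between rats either. The markers of hippocampal fields Wfs1 and Prox1 ran from 7.63 to 8.83 and from 9.13 to 9.73, with C1 the lowest for each, whereas the neuronal marker Neurod6 was lowest in C2, at 9.82, and at 10.63 in C1.

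The variable member probe sets of Slc5a5, Slc4a2, Slc16a12 and Slc31a1, 1 for each gene, followed Ttr, the transthyretin gene of the choroid plexus, over the rats. The probe set of Slc6a20a followed Col1a2, a collagen gene of meningeal fibroblasts. To follow means a Pearson correlation of 0.8 or more over the 10 rats, which share arrays and scaling, and was asked of variable probe sets only. The correlation chose these probe sets, so it is given as a description with no test. The 250 bases before the start of each of these 5 genes are shown because the genes moved with a marker of a tissue next to the hippocampus. They come from RefSeq, build GRCr8, and are written 5′ to 3′ on the strand of the gene. Capitals mark GGGCGG, a GC box, and TAATCC, the core bound by bicoid-class homeobox factors, each searched on both strands. The window of Slc5a5 is chr16:18580455-18580704 on the plus strand, that of Slc4a2 is chr4:11645403-11645652 on the minus strand and that of Slc16a12 is chr1:241621717-241621966 on the minus strand. The window of Slc31a1 is chr5:80830590-80830839 on the plus strand and that of Slc6a20a is chr8:132199901-132200150 on the minus strand.
Slc5a5: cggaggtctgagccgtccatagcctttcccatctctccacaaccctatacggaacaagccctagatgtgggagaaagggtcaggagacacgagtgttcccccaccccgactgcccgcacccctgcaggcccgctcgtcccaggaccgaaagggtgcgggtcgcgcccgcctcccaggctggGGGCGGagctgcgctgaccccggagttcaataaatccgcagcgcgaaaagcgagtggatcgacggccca
Slc4a2: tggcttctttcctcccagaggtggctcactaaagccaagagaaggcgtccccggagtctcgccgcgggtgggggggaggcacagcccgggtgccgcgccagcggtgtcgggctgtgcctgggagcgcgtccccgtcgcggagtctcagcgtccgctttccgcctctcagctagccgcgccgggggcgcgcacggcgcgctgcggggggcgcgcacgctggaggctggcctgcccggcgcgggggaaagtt
Slc16a12: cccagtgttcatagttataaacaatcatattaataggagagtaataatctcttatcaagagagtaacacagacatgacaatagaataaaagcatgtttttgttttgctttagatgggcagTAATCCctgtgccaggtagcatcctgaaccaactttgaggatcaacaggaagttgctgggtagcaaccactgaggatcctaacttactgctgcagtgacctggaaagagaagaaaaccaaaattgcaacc
Slc31a1: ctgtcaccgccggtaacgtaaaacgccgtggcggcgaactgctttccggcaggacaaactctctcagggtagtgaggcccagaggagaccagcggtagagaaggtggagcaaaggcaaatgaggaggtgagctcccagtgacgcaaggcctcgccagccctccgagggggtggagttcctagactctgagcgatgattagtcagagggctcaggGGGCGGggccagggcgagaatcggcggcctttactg
Slc6a20a: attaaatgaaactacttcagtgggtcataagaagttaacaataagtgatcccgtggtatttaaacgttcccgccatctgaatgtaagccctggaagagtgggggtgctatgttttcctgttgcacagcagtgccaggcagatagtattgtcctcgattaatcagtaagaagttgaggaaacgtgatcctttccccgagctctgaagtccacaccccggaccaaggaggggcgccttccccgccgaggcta
GGGCGG lay 69 bases before the start of Slc5a5 and 36 before that of Slc31a1, and 30.5% of 33469 promoter windows of the same length hold it on either strand. TAATCC lay 130 bases before the start of Slc16a12, and 6.34% of the windows hold it. The windows of Slc4a2 and Slc6a20a held neither string. The GC content was 74.4% for Slc4a2, 65.2% for Slc5a5, 62.0% for Slc31a1, 49.2% for Slc6a20a and 39.6% for Slc16a12, against a median of 51.2% over all windows.

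Ttr was at 13.59, 13.49, 10.35, 9.09 and 13.60 in C1 to C5 and at 7.40, 9.29, 13.58, 10.18 and 12.99 in P1 to P5. Slc5a5, the sodium and iodide symporter, followed it most closely (r = 0.93, Spearman's rho = 0.92), at 6.82, 6.75, 6.47, 6.41 and 6.72 in C1 to C5 and 6.40, 6.47, 6.77, 6.43 and 6.61 in P1 to P5. C1, C2, C5 and P3 were the highest rats for Slc5a5, P5 came next, and the groups overlapped. Slc4a2, a chloride and bicarbonate exchanger that the choroid plexus epithelium carries on its blood side, was at 8.10, 7.85, 7.18, 7.31 and 8.07 in C1 to C5 and 7.10, 7.31, 7.95, 7.17 and 7.47 in P1 to P5 (r = 0.88, rho = 0.88). The same 4 rats were again highest, with P5 next. Slc16a12, a creatine carrier of the monocarboxylate transporter family, was at 7.46, 7.09, 6.69, 6.40 and 7.23 in C1 to C5 and 6.42, 6.79, 7.24, 6.72 and 6.71 in P1 to P5 (r = 0.86, rho = 0.84). Here P5 was not among the high rats. Slc31a1, the copper importer of the plasma membrane, was at 7.79, 7.39, 7.16, 7.21 and 7.68 in C1 to C5 and 7.23, 7.13, 7.63, 7.19 and 7.48 in P1 to P5 (r = 0.84, rho = 0.77) at its probe set c, the last of 3 variable ones lettered by identifier. This probe set put P5 above C2, and its groups overlapped as well.

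The other 2 variable probe sets of Slc31a1 lay just outside the limit, with r = 0.7957 at b and 0.74 at a, and the remaining probe set of the gene was constant. Probe set b was at 9.01, 8.46, 8.11, 8.14 and 8.71 in C1 to C5 and 8.15, 8.25, 8.80, 8.12 and 8.33 in P1 to P5. All 3 variable probe sets had C1, C5 and P3 as their highest rats. Leaving out C4 and P1, the rats farthest from the median of Ttr, gave r = 0.94 for Slc5a5, 0.89 for Slc4a2, 0.75 for Slc16a12 and 0.90 for probe set c of Slc31a1, so that Slc16a12 alone came below 0.8. The next genes by r among the variable members were Slc35d3 (0.67), Slc16a6 (0.66) and Slc18a2 (0.62). The 4 followers were 10.5% of the 38 variable member probe sets, beside 108 of the 2902 variable probe sets on the array (3.72%), with Ttr and Col1a2 themselves left out. Among 13 choroid plexus markers, 12 were measured and 10 were variable at their brightest probe set. The mean of these 10 ran from 6.84 to 9.50 in the C-group and from 6.64 to 9.05 in the P-group, and 5 rats, the C-group rats C1, C2 and C5 and the P-group rats P3 and P5, had 8.16 to 9.50 while the others had at most 7.11. Their part in the values of the 4 transporters was not tested, and in dissected tissue more cells of a type and more RNA per cell cannot be told apart.

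Slc6a20a, a carrier of proline and other imino acids, was at 8.34, 8.43, 8.47, 8.61 and 8.78 in C1 to C5 and 8.48, 8.61, 8.69, 8.20 and 7.93 in P1 to P5, and its r with Ttr was -0.08. Col1a2 was at 8.99, 9.08, 8.67, 8.87 and 9.11 in C1 to C5 and 8.72, 8.86, 9.13, 8.46 and 8.14 in P1 to P5 (r = 0.84, rho = 0.69). P4 and P5 were lowest for Slc6a20a and for Col1a2, and without these 2 rats r was 0.36, so the relation rests on them. Over the same 8 rats, Slc4a2 (r = 0.91), Slc5a5 (0.85) and Slc35d3 (0.85) passed 0.8 with Col1a2, so which genes passed 0.8 with Col1a2 depended on P4 and P5. The probe set no longer met the limit without P5 alone, nor with arrays centred on their median. Slc6a20a was 1 of the 38 variable members (2.63%), and 34 of the same 2902 probe sets (1.17%) followed Col1a2. The next variable member probe set by r with Col1a2 was probe set b of Slc16a6 (r = 0.65, rho = 0.83). With a rho of 0.8 or more asked in place of r, 1 member followed Col1a2, and it was this probe set and not Slc6a20a. Among the 9 meningeal and fibroblast markers, 7 were variable, and their mean ran from 7.92 to 8.50 in the C-group and from 7.71 to 8.46 in the P-group. It was highest in C1, C2, C5 and P3, at 8.46 to 8.50 against at most 8.11 in the other rats, and these were also the highest rats for Slc5a5, Slc4a2 and Slc16a12. The part of meningeal RNA in the values of Slc6a20a and of these 3 genes was not tested.

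**Figure D1:**
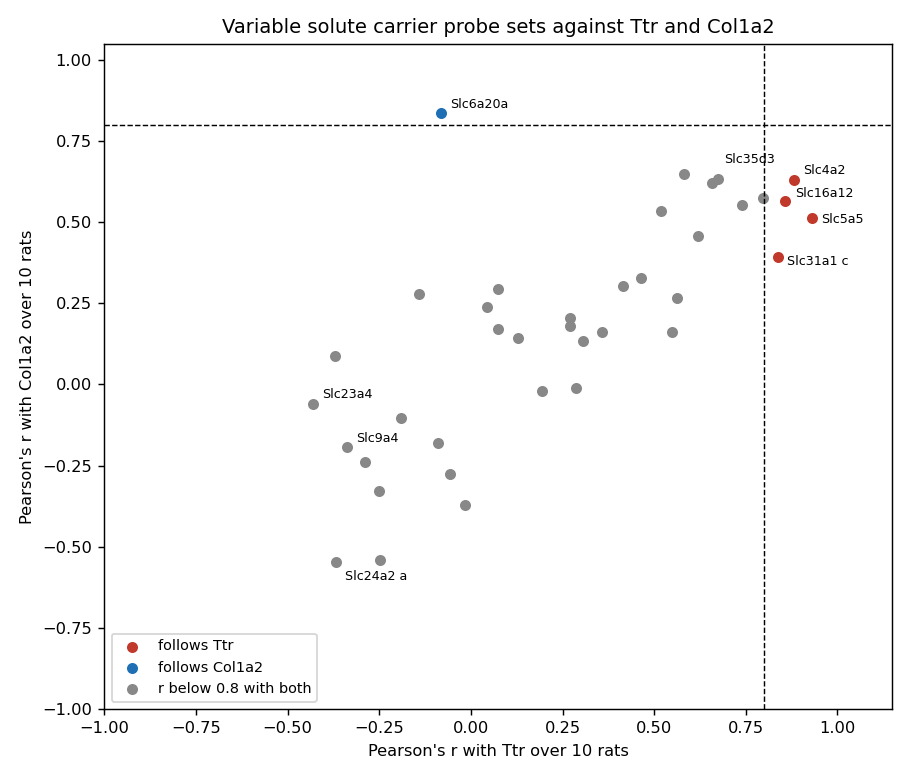
Pearson's r of each of the 38 variable Slc probe sets with Ttr (horizontal axis) and with Col1a2 (vertical axis) over the 10 rats, with dashed lines at 0.8. The 4 red points right of the vertical line are Slc5a5, Slc4a2, Slc16a12 and Slc31a1, the blue point is Slc6a20a, and letters after a name tell apart the probe sets of a gene.

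**Figure D2:**
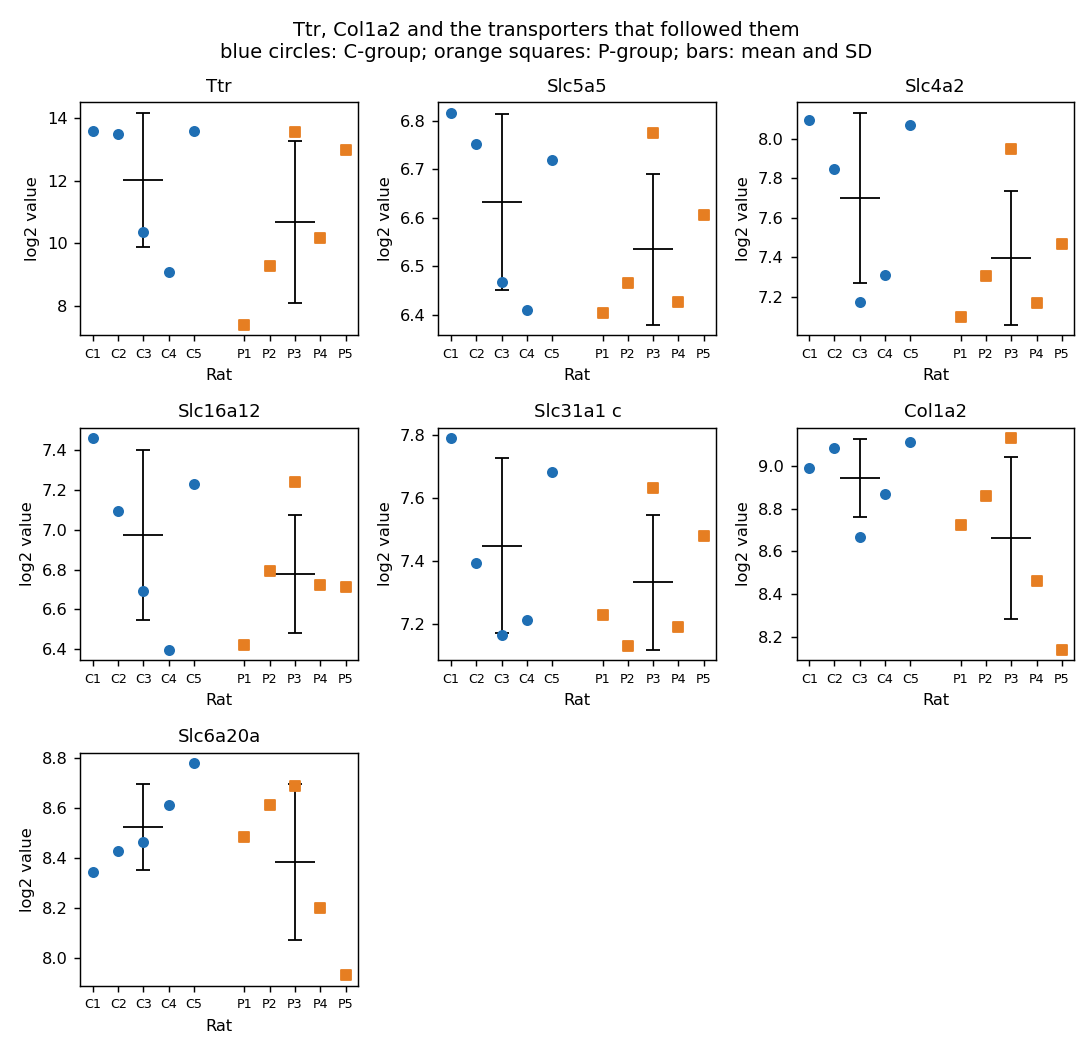
Log2 values of Ttr, Col1a2 and the 5 transporters in each rat, with blue circles for the C-group, orange squares for the P-group and black bars for the group mean and SD (n = 5 rats). C1, C2, C5 and P3 are high for Ttr, Slc5a5, Slc4a2 and Slc16a12, and P5 is lowest for Col1a2 and Slc6a20a.

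The other 33 variable member probe sets did not reach 0.8 with either gene, and several were set apart by 1 rat or a few. Slc35d3, of the nucleotide sugar transporter families, had the largest SD of the members (0.668) and was at 5.48, 6.71, 5.36, 5.27 and 6.86 in C1 to C5 and 5.44, 5.45, 6.83, 5.50 and 5.48 in P1 to P5. C2, C5 and P3 were thus over 1 log2 unit above the other 7 rats, and C1, where Ttr was high, was among the low ones. Slc23a4, a sodium-dependent nucleobase transporter in the rat, was at 6.54 in P2 and from 5.90 to 6.04 in the other 9 rats. P2 was also the rat with high values of the pineal markers: the mean of all 5 measured, Pde6g, Pdc, Gngt1, Gnb3 and Aipl1, was 9.18 in P2 and from 6.15 to 6.30 in the others. The part of pineal RNA in the value of Slc23a4 was not tested.

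The bicarbonate carriers of neurons and glia were highest in C1. Slc4a4, the electrogenic sodium bicarbonate cotransporter of astrocytes, was at 9.52, 8.92, 8.80, 8.54 and 8.37 in C1 to C5 and 9.15, 8.75, 8.85, 8.52 and 8.71 in P1 to P5. Slc4a7, an electroneutral sodium bicarbonate cotransporter, was at 7.86, 7.37, 7.03, 7.07 and 6.82 in C1 to C5 and 7.40, 6.93, 6.86, 6.92 and 6.90 in P1 to P5. Slc4a10, a sodium-driven bicarbonate carrier of neurons and choroid plexus, was at 10.96, 10.31, 9.94, 10.08 and 10.09 in C1 to C5 and 10.65, 10.27, 10.27, 10.06 and 10.32 in P1 to P5. C1 was the highest rat for all 3 and P1 the next, and Ttr was high in C1 and lowest in P1. The r with Ttr was 0.07, 0.04 and 0.13, unlike the 0.88 of Slc4a2 in the same family. For Slc4a4 and Slc4a7 a brighter probe set was constant, at 10.08 and 8.76.

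**Figure D3:**
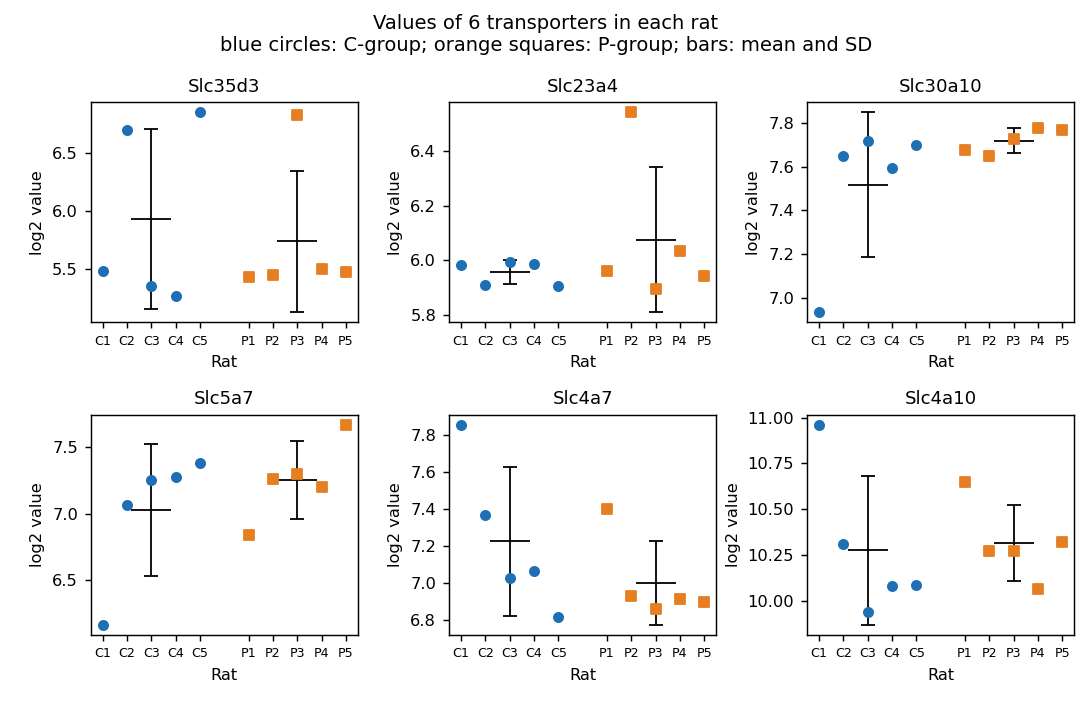
Log2 values of Slc35d3, Slc23a4, Slc30a10, Slc5a7, Slc4a7 and Slc4a10 in each rat, with blue circles for the C-group, orange squares for the P-group and black bars for the group mean and SD (n = 5 rats). C2, C5 and P3 stand above the rest for Slc35d3, P2 for Slc23a4 and C1 for Slc4a7 and Slc4a10, and C1 is the lowest rat for Slc30a10 and Slc5a7.

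C1 was the lowest rat for 2 members. Slc30a10, a manganese exporter, was at 6.93, 7.65, 7.72, 7.59 and 7.70 in C1 to C5 and 7.67, 7.65, 7.73, 7.78 and 7.77 in P1 to P5. Slc5a7, the choline transporter of cholinergic nerve endings, was at 6.16, 7.06, 7.25, 7.28 and 7.38 in C1 to C5 and 6.84, 7.26, 7.30, 7.20 and 7.67 in P1 to P5. Without C1, the difference of Slc5a7 went from -0.23 to -0.01 log2 units and that of Slc30a10 from -0.20 to -0.05.

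The groups overlapped for all transporters of transmitters and amino acids. Slc32a1, which loads GABA and glycine into vesicles, ran from 8.30 to 8.69 in the C-group and from 8.38 to 8.66 in the P-group. Slc18a2, the vesicular monoamine transporter, ran from 6.09 to 7.01 over all rats at its more variable probe set and was highest in C1, C5 and P3. Slc6a6, the taurine transporter, was at 8.27, 7.98, 7.74, 7.60 and 7.17 in C1 to C5 and 7.85, 7.81, 7.48, 7.58 and 7.27 in P1 to P5, while its brighter probe set was constant at 9.31. Slc6a7, a proline transporter of glutamatergic nerve endings, ran from 7.50 to 8.01, and Slc30a3, which loads zinc into the vesicles of mossy fibres, from 10.24 to 10.68. The cationic amino acid transporter gene Slc7a3 ran from 6.66 to 7.35 and Slc7a14, a lysosomal family member, from 8.72 to 9.25.

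The remaining variable members covered the mitochondria, calcium, metals and metabolites, and C1 was the highest rat for most of them. They are described here because they complete the 33 variable genes, not by a rule of size. Slc25a18, a mitochondrial glutamate carrier of astrocytes, was at 9.42, 8.99, 8.63, 8.80 and 8.84 in C1 to C5 and 8.83, 8.87, 8.81, 8.67 and 8.88 in P1 to P5. Slc13a5, a citrate importer, was at 8.02 in C1 and from 7.04 to 7.46 in the other 9 rats. Among the sodium and calcium exchangers, Slc24a4 ran from 7.61 to 8.30, with C1 highest, and Slc24a2 from 11.61 to 11.83 and from 9.89 to 10.38 at its 2 probe sets, with C3 and C1 highest. These 2 probe sets of one gene thus ranked the rats differently. Slc39a10, a zinc importer, ran from 9.96 to 10.23 and Slc44a1, a choline transporter-like protein, from 9.46 to 9.59, both with C1 highest. Slc66a2, of a family of lysosomal transporters, ran from 7.74 in P1 to 8.21 in C5. The groups overlapped for each of these genes.

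Of the 33 genes with a variable probe set, 11 had several, and in 3 of these, Slc4a4, Slc4a7 and Slc6a6, the brightest one was constant. Slc16a12, Slc31a1, Slc6a20a, Slc18a2, Slc24a4 and Slc44a1 had constant probe sets beside a brighter variable one. Slc16a12 and Slc6a20a thus followed Ttr and Col1a2 at 1 of their 2 probe sets, the other being constant. Over all 291 member genes, 76 had several probe sets.

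Of 13 transporters of hippocampal neurons and glia taken whatever their values, 11 had a probe set named here, and 10 of these had no variable one, Slc32a1 being the exception. Among the constant ones were the vesicular glutamate transporter Slc17a7, the chloride cotransporters Slc12a5 and Slc12a2, the glucose transporters Slc2a1 and Slc2a3, the monocarboxylate transporter Slc16a1, the sodium and calcium exchanger Slc8a1, the glutamine transporter Slc38a1, the GABA transporter Slc6a11 and the glycine transporter Slc6a9. Slc17a7 was at 10.69 and Slc12a5 at 11.45, so that bright probe sets were among the constant ones. Some transporters known from the choroid plexus were also among the constant ones. These included the organic anion transporter Slc22a8 at 7.54 at its brighter probe set and the folate transporters Slc19a1 at 7.30 and Slc46a1 at 6.91. The sodium, potassium and chloride cotransporter Slc12a2 at 10.50 was another. Slc22a8, Slc19a1 and Slc46a1 were picked by no rule, and Slc4a2 and Slc4a10, also carriers of the choroid plexus, were variable. Slc19a1 had r = 0.90 with Ttr at an SD of 0.000135, and following was asked of variable probe sets only. By role, 6 of 45 probe sets of metal ion transporters varied, 4 of 19 of bicarbonate and anion transporters, 4 of 13 of sodium and calcium exchangers and 3 of 58 of mitochondrial carriers and relatives. None varied of 35 probe sets of organic ion, peptide, bile acid and urea transporters, 9 of cation and chloride cotransporters and 6 of fatty acid transporters. The limit between variable and constant left a gap: the lowest SD above it was 0.0126, for the sodium and calcium exchanger Slc8a2, and the highest below it 0.00203, for the glycine transporter Slc6a9.

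**Figure D4:**
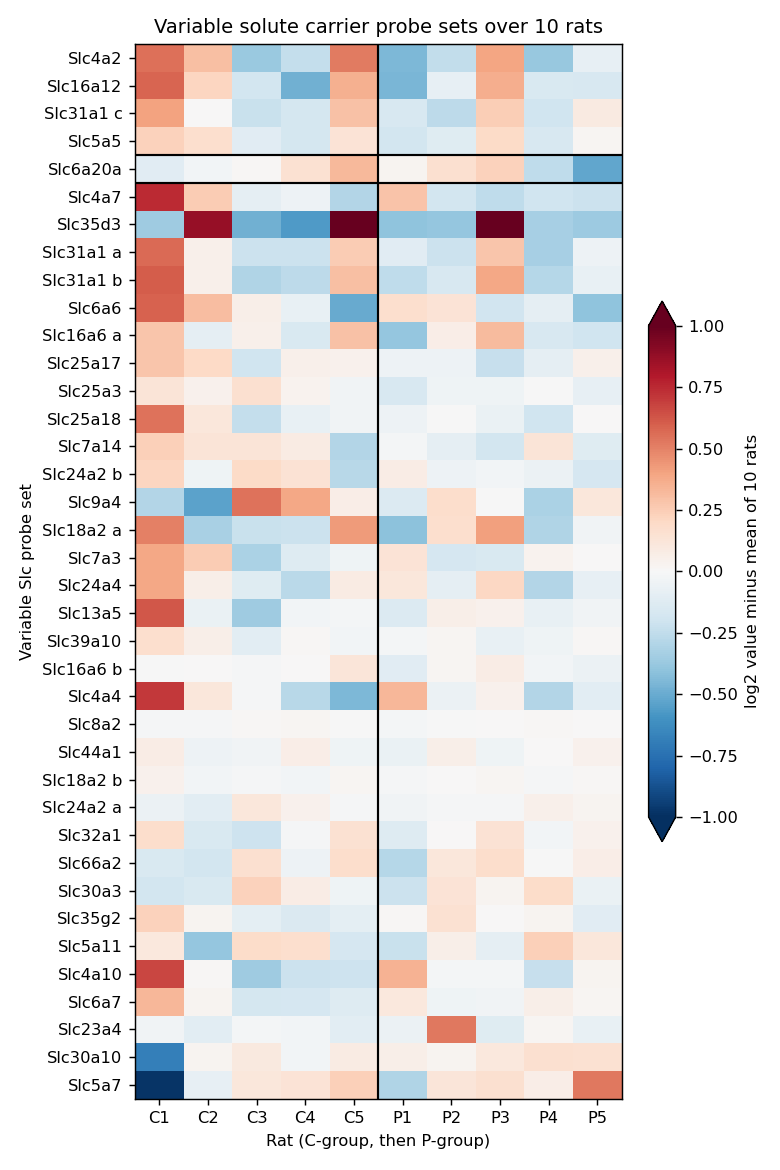
Log2 values of the 38 variable Slc probe sets (rows) in each rat (columns), as the deviation from the mean of its row, in red where above and in blue where below. Horizontal lines part the 4 probe sets that followed Ttr, the one that followed Col1a2 and the other 33, the colours end at 1 log2 unit, and the column of C1 is red for most rows and darkest blue for Slc30a10 and Slc5a7.

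Between the groups, no member passed limma, which weighs a difference against the spread between rats and adjusts over all 31042 probe sets (lowest adjusted p = 0.927 over members). Over all probe sets, 0.00% passed. The unadjusted p was under 0.05 for 10 of the 394 member probe sets (2.54%) against 2.95% of all, and all but Slc25a3 were constant ones, with differences of at most 0.00163 log2 units. Among variable probe sets it was 1 of 38 members (2.63%), beside 1.14% of all. The median difference of the 38 variable member probe sets was 0.06 log2 units, C-group minus P-group, beside 0.07 over all 2904 variable probe sets. The difference was above 0 in 26 of 38 (68.4%), beside 68.3% of all variable ones. With arrays centred on the median of their variable probe sets the median difference was -0.0030. Above 0 were then 18 of 38 (47.4%), beside 51.4% of all variable ones. This centring moved every difference by -0.0617 log2 units. It gives the variable probe sets the same median in every array, so a median difference near 0 follows from the procedure. No member probe set had groups that did not overlap, against 0.445% of all probe sets and 0.207% of the variable ones.

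Rank products, the method the paper names, compares ranks of differences and takes no account of the variance of a probe set. At a false discovery rate (FDR) under 0.05 it called 5 of the 394 member probe sets higher in the C-group (1.27%), against 2.0% of all 31042, and 1 lower (0.254%), against 0.416% of all. All calls, of members and of other probe sets, fell among the variable probe sets. Of the 38 variable members, 13.2% were called higher, against 21.3% of all variable probe sets, and 2.63% lower, against 4.44%. The members' shares were thus not above the background on either count. With rank products run over the variable probe sets alone, 0 members were called higher and 0 lower, so none of these calls was kept. Slc4a2 differed by 0.30 log2 units (standard error 0.24, FDR 0.0151), the mean being 7.70 ± 0.43 (SD, n = 5 rats) with solid chow and 7.40 ± 0.34 (SD, n = 5 rats) with powdered chow. Slc4a7 differed by 0.23 (standard error 0.20, FDR 0.0371), and by 0.07 without C1.

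The other 3 called higher were named because they were called, after their values were seen. Slc25a3, the mitochondrial phosphate carrier, was at 11.79, 11.70, 11.82, 11.69 and 11.62 in C1 to C5 and 11.50, 11.62, 11.62, 11.66 and 11.58 in P1 to P5. All rats of the C-group but C5 were above every rat of the P-group. Its difference of 0.13 (standard error 0.04, FDR 0.0224) had the lowest unadjusted p of the variable members and an adjusted p of 0.927 in limma, and it was 0.07 with median-centred arrays. Slc25a17, which carries cofactors into peroxisomes, was at 9.97, 9.89, 9.49, 9.74 and 9.74 in C1 to C5 and 9.64, 9.64, 9.46, 9.60 and 9.74 in P1 to P5. Its difference was 0.15 (standard error 0.09, FDR 0.0317), and 0.10 without C1 and 0.09 with median-centred arrays. Slc9a4, a sodium and proton exchanger, was at 6.04, 5.80, 6.88, 6.73 and 6.40 in C1 to C5 and 6.20, 6.52, 6.33, 6.02 and 6.45 in P1 to P5. C3 and C4 were its highest rats and C2 its lowest, so the C-group spanned the P-group, and the difference was 0.07 (standard error 0.21, FDR 0.0371). It was 0.15, 0.21, -0.06 and -0.02 without C1 to C4, 0.04, 0.12, -0.0051 and 0.10 without P1, P2, P4 and P5, and 0.0047 with median-centred arrays.

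The 1 member called lower was Slc30a10 (difference -0.20, standard error 0.15, FDR 0.0480), whose low rat was C1. With median-centred arrays its difference was -0.26. Those of Slc5a7 and Slc23a4 also lay further below 0 with median-centred arrays, at -0.29 and -0.18 against -0.23 and -0.12. Slc4a2 kept its call in 7 of the 10 sets with 1 rat left out, Slc25a3 in 6, Slc25a17 in 5, Slc9a4 in 4, and Slc4a7 and Slc30a10 in 2 each. The 3 sets in which Slc4a2 lost its call were those without C1, C2 or C5. These were the C-group rats with high choroid plexus markers. The number called higher was 0 without C1, 1 without C2, 3 without C3, 2 without C4 and 8 without P3, and the number called lower was 2 without C1 or C5, 0 without C2, C4 or any 1 rat of the P-group.

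The followers of Ttr other than Slc4a2 were not called. Slc16a12 differed by 0.19 (standard error 0.22), Slc31a1 by 0.12, 0.16 and 0.17 at its probe sets c, b and a (standard errors 0.15, 0.20 and 0.175) and Slc5a5 by 0.10 (standard error 0.10). Without C1 the difference was 0.07 for Slc16a12, 0.0316, 0.0263 and 0.0527 for Slc31a1 at c, b and a, and 0.05 for Slc5a5. Slc6a20a differed by 0.14 (standard error 0.155) and Slc35d3 by 0.19 (standard error 0.43). The value for Slc6a20a was 0.0286 without P5, and that for Slc35d3 was -0.0356 without C5 and 0.4683 without P3. Slc16a6, of the monocarboxylate transporter family, differed by 0.15 at its probe set a (standard error 0.15) and Slc6a6 by 0.16 (standard error 0.21). These differences were 0.07 for Slc16a6 without P1 and 0.0266 for Slc6a6 without C1. Below 0 lay Slc5a7 at -0.23 (standard error 0.25), Slc23a4 at -0.12 (standard error 0.12), Slc6a7 at -0.04 (standard error 0.10) and Slc4a10 at -0.04 (standard error 0.20). Without P2, Slc23a4 was at -0.0024, and without C1, Slc6a7 was at -0.1333 and Slc4a10 at -0.2125. Slc5a11, an inositol transporter, and Slc30a3 differed by -0.04 and -0.03 and Slc35g2 by -0.03, each by less than its standard error.

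**Figure D5:**
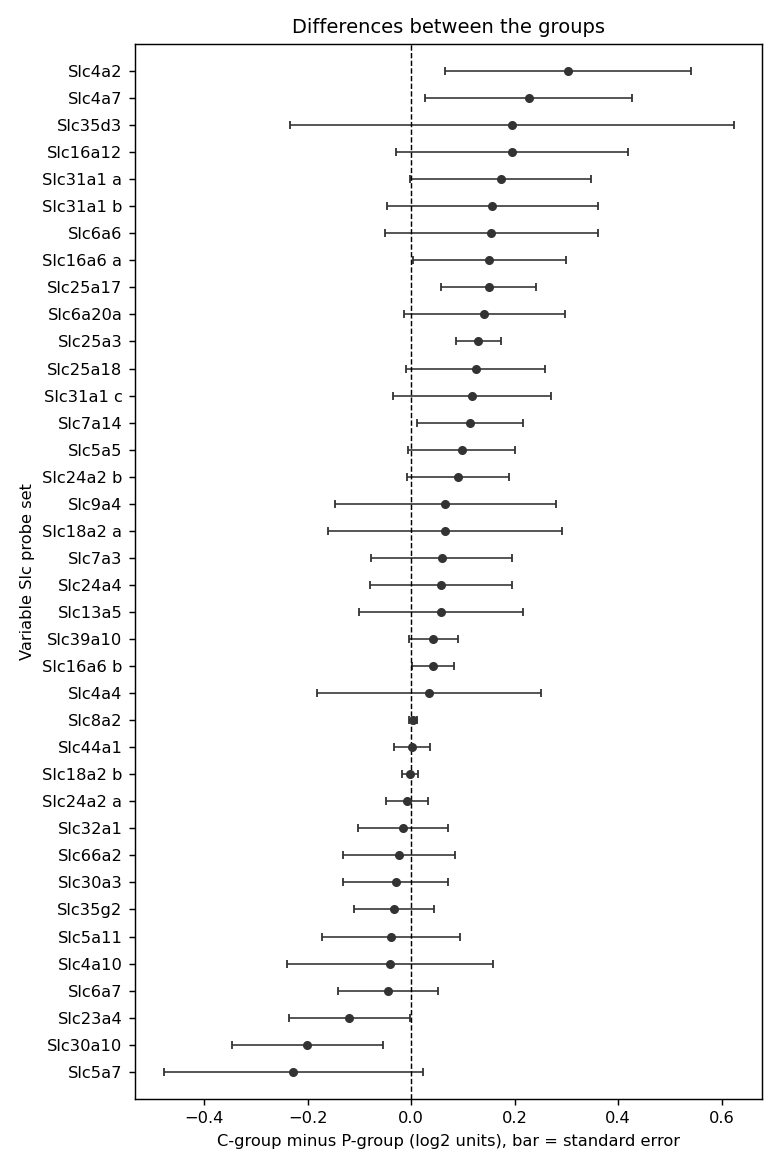
Difference of the 38 variable Slc probe sets between the groups, C-group minus P-group in log2 units, with bars of 1 standard error from limma. Points run from -0.23 for Slc5a7 to 0.30 for Slc4a2, and letters after a name tell apart the probe sets of a gene.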

How the data were processed

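Total RNA of manually dissected hippocampi was hybridized to Affymetrix arrays by the authors, who deposited log2 values made with qFARMS (R 2.7.2). The 57 control probe sets were left out. The number of arrays, 5 in a group, limits the precision. All 394 gene identifiers of the members were found in the RefSeq gene table of GRCr8, and promoters were found for 239 of 291 genes. Groups came from the titles.

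Rank products was computed in Python 3.11.15 from the 25 differences between groups, with 100 permutations within arrays. limma 3.58.1 in R 4.3.3 (lmFit, eBayes, Benjamini-Hochberg adjustment) gave differences, standard errors and adjusted p-values. Both were run over all probe sets. Both were also run on simulated arrays, drawn without effects shared by an array. The only requirement set there was on the size of the limma differences, and none was set on rank products. Ttr and Col1a2 were represented by their brightest probe sets. The genes named are the 8 variable member probe sets with the largest difference in each direction, those that followed Ttr or Col1a2, any variable one with an unadjusted p under 0.01, and 13 transporters of neurons and glia. Slc25a3, Slc25a17 and Slc9a4 were added after their values were seen, and the other variable members to complete the account. Slc22a8, Slc19a1 and Slc46a1, constant carriers known from the choroid plexus, were named by no rule. The members, lists and alternatives were chosen with earlier results of these data known. The alternatives changed the pairing, the scaling, the filters, the variance model, the thresholds and the rats used. The count of sets with 1 rat left out in which a call was kept was chosen after seeing the data.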

Additional observations from a re-analysis of the deposited data

Results flagged for a closer look

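In groups of 5 rats, a rat was flagged when its gap to the nearest other rat exceeded 0.71 of the range of the group. Of 46 groups of the named probe sets, 5 were flagged, and chance alone flags about 1 in 20. P2 stood above the P-group for Slc23a4 (0.784), P3 for Slc35d3 (0.951) and P1 for Slc4a7 (0.870). C1 stood below the C-group for Slc30a10 (0.843) and Slc5a7 (0.738).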

How the results depend on the processing

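Over all alternatives no member passed limma. The count at an unadjusted p under 0.05 was 26 with quantile normalization, 0 with median-centred arrays, 0 among variable probe sets alone, 16 with the replicate block, and from 8 to 17 with 1 rat left out. Rank products called 0 members higher and 0 lower among variable probe sets alone, 1 and 0 without dim probe sets, 12 and 2 with the replicate block (paired differences), and 0 lower with quantile normalization. With 1 rat left out it called from 0 to 8 higher and from 0 to 2 lower. The cause of these changes was not tested. Median centring adds a constant to an array, which leaves the ranks unchanged, and gave the same calls. Variable member probe sets numbered 84 with quantile normalization and 38 in each set with 1 rat left out. At r of 0.9 or more, 1 followed Ttr and 0 followed Col1a2, and with median-centred arrays 0 followed Col1a2. At a Spearman's rho of 0.8 or more, 4 followed Ttr, with probe set a of Slc31a1 in place of c. The 1 that then followed Col1a2 was probe set b of Slc16a6, in place of Slc6a20a. With 1 rat left out, from 4 to 6 followed Ttr and from 0 to 1 Col1a2. The median difference of the variable members ran from 0.0099 without C1 to 0.0854 without C4.

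With 1 rat left out, differences ran across 0 for Slc9a4 (-0.0606 to 0.2082), Slc35d3 (-0.0356 to 0.4683), Slc30a3 (-0.0919 to 0.0129), Slc32a1 (-0.0622 to 0.0345), Slc35g2 (-0.0948 to 0.0013), Slc4a10 (-0.2125 to 0.0434) and Slc5a11 (-0.0998 to 0.0529). The other named differences kept their sign in these sets, but several changed much in size, among them Slc23a4 (-0.1641 to -0.0024), Slc6a7 (-0.1333 to -0.0058), Slc5a7 (-0.3322 to -0.0120), Slc6a6 (0.0266 to 0.3005), Slc6a20a (0.0286 to 0.2178), Slc16a12 (0.0734 to 0.3382) and probe set b of Slc31a1 (0.0263 to 0.2739). Same-numbered rats deviated from their group means with correlations of 0.28, -0.01, -0.39, 0.48 and 0.45 over the variable probe sets. Rats of different numbers were not compared in this way, so these values do not decide whether the rats were paired. The numbers were not taken as pairs. The replicate block left every named difference as it was, since each number held a rat of each group.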
